A study of Mus musculus with 6 samples.

Results

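The tumour necrosis factor (TNF) superfamily ligands and receptors were followed across 6 microarrays of whole mouse lung after naphthalene, a compound that club cells of the airway turn into a toxic metabolite. The members were the probe sets with 1 annotated gene symbol beginning with Tnfsf or Tnfrsf, together with Tnf, Lta, Ltb, Ltbr, Cd40, Cd40lg, Cd27, Cd70, Fas and Fasl, with the brightest probe set standing for a gene. This gave 34 genes of the 16537 tested, each with 1 probe set, of which 10 were ligands and 24 receptors. The ligand genes Tnfsf4, Tnfsf11, Tnfsf12, Tnfsf13, Tnfsf18, Cd40lg and Cd70 had no probe set of their own symbol and were not analysed here. One group of 3 arrays was labelled Falcor-null, a null genotype (Falcor-/-) of a long non-coding RNA gene that lies beside Foxa2, and carried labels of 31, 32 and 33 days after naphthalene. The other 3 were labelled wild type, with 28, 29 and 30 days. All 6 samples had the same label of a mixed CD1 and C57Bl6 strain. The day labels climb by 1 with each sample, and whether they are true times is not known here. As they stand, day and genotype cannot be told apart. Age, sex and the build of the null allele are not given in the sources used here, nor is it stated whether samples came from separate animals, so p-values here reflect the spread from sample to sample, part or all of which may be technical.

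Ligands of this superfamily are made mostly as membrane proteins that act as trimers, and their receptors either recruit TRAF adaptors to switch on the NF-kB transcription factors or carry a death domain that can start cell death. In the lung the family is best known from lymphocytes, which use it for costimulation and survival, from macrophages, which make TNF, and from the organisation of lymphoid tissue by lymphotoxins. Some receptors, such as Tnfrsf1a and Ltbr, are also carried by epithelial and stromal cells. In whole lung, fewer cells of a type and less RNA per cell cannot be told apart.

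Array medians lay between 6.69 and 6.70 on the log2 scale for the arrays labelled Falcor-null and between 6.72 and 6.74 for wild type. The lowest value on an array was 2.09 to 2.42 for the arrays labelled Falcor-null and 3.19 to 3.22 for wild type. This rests on a single probe set per array. Among the genes tested, the lowest group mean was 4.28 for the arrays labelled Falcor-null and 4.11 for wild type, the other way round. The Falcor probe set (symbol 9030622O22Rik) gave 6.82, 6.34 and 6.32 on the arrays labelled Falcor-null and 4.69, 5.01 and 5.45 in wild type, so it was higher where a null genotype was labelled (limma adjusted p 0.0423). Its position against the deleted sequence is unknown here, and outside that sequence it would be no check of the genotype. Every direction below therefore rests on the labels.

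Signals of the family were lower on the arrays labelled Falcor-null in most members, and 1 member passed the test. Of 34 members, 26 had a log2 difference (labelled Falcor-null minus wild type) below 0, or 76.5%, against 49.2% of all genes. The median difference of the members was -0.23, beside 0.00 over all genes. Tnfrsf13b fell and no member rose at an adjusted p of 0.05 in limma, a threshold that 0.556% of all genes passed (0.46% lower and 0.0968% higher). The 3 arrays labelled Falcor-null lay below all 3 wild-type arrays for 14 members, against 10.6% of all genes, and above them for 2 members, against 8.96% of all genes. Groups thus stood apart in 16 members, where 19.5% of all genes had groups that did not overlap. At an unadjusted p of 0.05, 17 members were counted, beside 13.8% of all genes. Of these, 15 were lower, beside 7.65% of all genes, and 2 were higher, beside 6.11%. At an adjusted p of 0.1, 4 members were counted, all lower, beside 1.69% of all genes in either direction and 1.25% on the lower side. The share of members on the higher side, 5.88% by either count, was near or below that of all genes. The mean signal over the 34 members was 6.57, 6.64 and 6.64 on the arrays labelled Falcor-null and 6.83, 6.94 and 6.82 in wild type, and these values did not overlap.

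**Figure D1:**
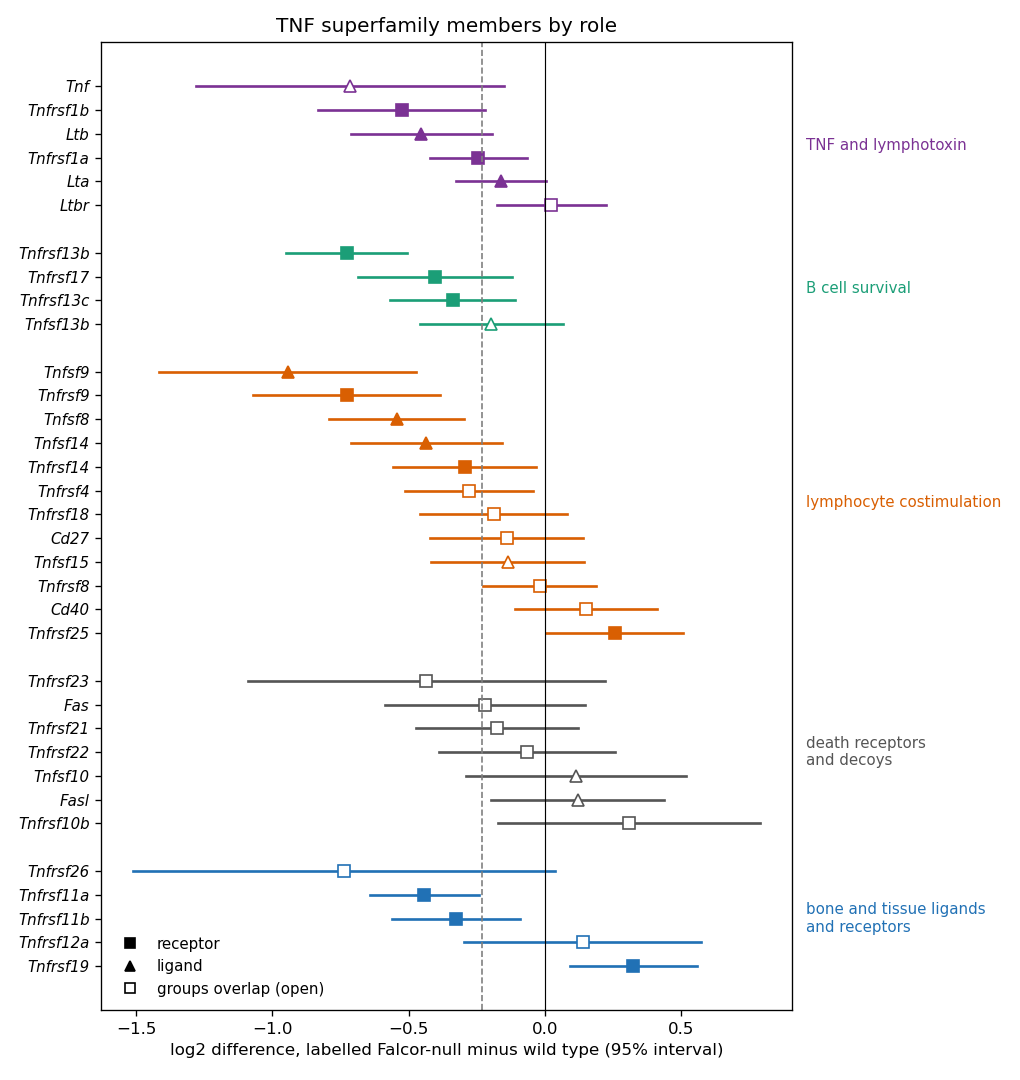
Log2 difference of each of the 34 members (labelled Falcor-null minus wild type), with its 95% interval from the limma fit, grouped by role. Squares are receptors, triangles ligands and open symbols members whose groups overlap, and the dashed line is the members' median of -0.23. Tnfsf9 stands furthest left at -0.94 and Tnfrsf19 furthest right at 0.33.

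Promoter sequences of 4 receptor and ligand genes are shown. Of these, 3 are the only members, among those with a window, that held an NF-kB match, so they do not typify the family. Tnfrsf13b was the member that passed, Tnfrsf9 and Ltb had groups that did not overlap, and Tnfrsf8 did not differ beyond its spread. Each is the stretch of 250 bases before the annotated start, 5′ to 3′ on the gene's strand, from RefSeq on GRCm38.p6, with matches to the NF-kB consensus and to the AP-1 site TGANTCA on either strand in capitals.
Tnfrsf13b, chr11:61126505-61126754, + strand: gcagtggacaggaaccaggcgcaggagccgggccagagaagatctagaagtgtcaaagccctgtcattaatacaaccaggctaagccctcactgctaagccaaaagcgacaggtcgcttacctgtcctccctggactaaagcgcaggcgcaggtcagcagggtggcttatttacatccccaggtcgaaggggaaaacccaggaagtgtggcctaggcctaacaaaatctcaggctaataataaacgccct
Tnfrsf9, chr4:150927749-150927998, + strand: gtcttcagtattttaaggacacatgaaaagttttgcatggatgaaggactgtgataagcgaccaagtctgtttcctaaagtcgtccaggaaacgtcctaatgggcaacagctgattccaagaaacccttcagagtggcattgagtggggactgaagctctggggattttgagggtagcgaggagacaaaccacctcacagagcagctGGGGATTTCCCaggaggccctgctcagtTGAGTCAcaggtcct
Ltb, chr17:35194257-35194506, + strand: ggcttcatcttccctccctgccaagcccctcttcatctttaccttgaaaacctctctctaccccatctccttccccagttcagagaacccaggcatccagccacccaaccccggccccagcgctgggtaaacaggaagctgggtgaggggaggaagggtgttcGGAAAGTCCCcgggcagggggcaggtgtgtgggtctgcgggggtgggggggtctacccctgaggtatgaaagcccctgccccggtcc
Tnfrsf8, chr4:145315165-145315414, - strand: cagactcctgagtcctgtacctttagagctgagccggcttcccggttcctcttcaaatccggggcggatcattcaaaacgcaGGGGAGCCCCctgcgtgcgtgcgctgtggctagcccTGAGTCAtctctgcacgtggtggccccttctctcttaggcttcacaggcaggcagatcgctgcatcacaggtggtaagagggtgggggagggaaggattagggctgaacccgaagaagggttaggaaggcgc
The Tnfrsf9 stretch held 2 overlapping NF-kB matches and 1 AP-1 match, the Ltb stretch 1 NF-kB match, and the Tnfrsf8 stretch 1 of each, while the Tnfrsf13b stretch held neither. RefSeq gave such windows for 28 of the 34 members, some with more than 1 start, and the second Tnfrsf9 window held neither motif. An NF-kB match stood in 3 of the 32 windows of members (9.38%), beside 3.9% of all 32851 promoter windows. AP-1 matches stood in 5 of the 32 (15.6%), beside 6.75% of all. Among the 12 members with a window whose arrays labelled Falcor-null were all lower, 2 held an NF-kB match, against 1 of the 16 others, and 2 held an AP-1 match, against 3 of the 16. A match is a run of letters and not a shown binding site, and windows without one say nothing about either factor.

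The member that passed, Tnfrsf13b, was 1 of the 3 measured B cell survival receptors. Tnfrsf13b, or TACI, which binds BAFF and APRIL on activated B cells and plasma cells, read 4.42, 4.46 and 4.42 on the arrays labelled Falcor-null, against 5.34, 5.09 and 5.05 in wild type. The groups were far apart for their spread, and the arrays labelled Falcor-null were nearly alike. Its log2 difference was -0.73 (SE 0.095, 95% interval -0.95 to -0.51), or 1.66-fold lower, with an adjusted p of 0.0283 in limma. The probe set is dim, with a mean signal higher than that of only 7.25% of genes, and the arrays labelled Falcor-null sat near the lowest gene mean of 4.34, where a difference may be compressed. The call was lost when any single array other than wild type replicate 1 was left out, with adjusted p-values between 0.0593 and 0.109, while the difference stayed between -0.78 and -0.64 in the 14 alternatives in which the gene was tested.

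The remaining members of this group were lower without passing. Tnfrsf13c, the BAFF receptor of mature B cells, read 6.63, 6.68 and 6.42 on the arrays labelled Falcor-null, against 7.03, 6.84 and 6.87 in wild type (log2 difference -0.34, SE 0.098, adjusted p 0.202). Tnfrsf17, or BCMA, which sustains plasma cells, read 4.38, 4.71 and 4.82 there, against 5.08, 5.07 and 4.96 (log2 difference -0.40, SE 0.12, adjusted p 0.213). Tnfrsf17 is dim, above only 8.08% of genes by mean signal. In both receptors every array labelled Falcor-null lay below every wild-type array. Their ligand BAFF, Tnfsf13b, made largely by myeloid and stromal cells, read 8.33, 8.55 and 8.14 on the arrays labelled Falcor-null and 8.47, 8.60 and 8.53 in wild type. These groups overlapped, with a log2 difference of -0.20 and a 95% interval of -0.46 to 0.07. Among the 13 measured B and plasma cell markers, all were lower, 4 passed (Jchain, Ighm, Mzb1 and Cd79a; 2 without wild type replicate 2 and without Falcor-null replicate 1 or 2) and the median log2 difference was -0.65. The mean signal of this marker list was 6.54 to 6.73 on the arrays labelled Falcor-null and 7.41 to 7.60 in wild type, and its part in the receptor differences was not tested.

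**Figure D2:**
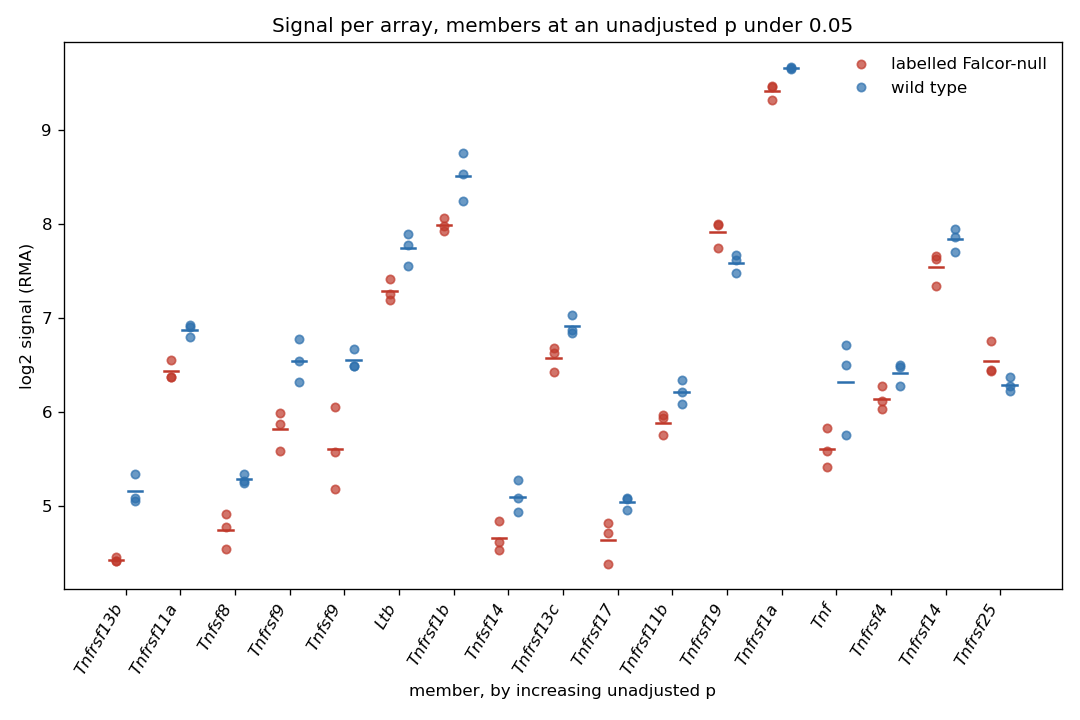
Log2 signal on each array for the 17 members at an unadjusted p under 0.05, in order of p, with arrays labelled Falcor-null left of wild type and bars at the group means. The groups separate for all of these except Tnf and Tnfrsf4, and Tnfrsf19 and Tnfrsf25 are the members with higher values on the arrays labelled Falcor-null.

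The costimulatory pair Tnfsf9 and Tnfrsf9 held the largest difference among ligands and among the largest of receptors. Tnfsf9, the CD137 ligand of antigen-presenting cells, read 5.18, 6.06 and 5.58 on the arrays labelled Falcor-null, against 6.49, 6.49 and 6.67 in wild type. The arrays labelled Falcor-null spread widely but all stayed below wild type, with a log2 difference of -0.94 (SE 0.20, 1.92-fold lower) and an adjusted p of 0.103. Its receptor Tnfrsf9, or CD137, induced on activated T cells, read 5.59, 5.87 and 5.99, against 6.32, 6.54 and 6.77 in wild type. That difference was -0.73 (SE 0.15, 1.65-fold lower, adjusted p 0.0939), again with no overlap.

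Other costimulatory ligands were lower while their receptors varied. Tnfsf8, the CD30 ligand, read 4.91, 4.77 and 4.54 on the arrays labelled Falcor-null, against 5.25, 5.27 and 5.34 in wild type (log2 difference -0.54, SE 0.11, adjusted p 0.0868). Its receptor Tnfrsf8, or CD30, read 4.97, 5.24 and 5.10 there and 5.17, 5.09 and 5.10 in wild type, a difference of -0.02 with a 95% interval of -0.23 to 0.19. Ligand values were separated by group and receptor values were not, though whether the pair's differences differ from each other was not tested. Both probe sets are dim, with Tnfsf8 above only 11.7% and Tnfrsf8 above only 13.5% of genes by mean signal. Tnfsf14, or LIGHT, a ligand of activated T cells that binds both Tnfrsf14 and Ltbr, read 4.62, 4.84 and 4.53, against 5.08, 5.27 and 4.94 in wild type (log2 difference -0.43, SE 0.12, adjusted p 0.177). Tnfrsf14, or HVEM, read 7.35, 7.63 and 7.66, against 7.95, 7.86 and 7.70 (log2 difference -0.29, SE 0.11, adjusted p 0.309). Both had groups that did not overlap, and Tnfsf14 is dim, above only 8.90% of genes by mean signal. Tnfrsf4, or OX40, of activated and regulatory T cells, read 6.03, 6.11 and 6.27 on the arrays labelled Falcor-null and 6.27, 6.50 and 6.48 in wild type, touching at 6.27 (log2 difference -0.28, adjusted p 0.281). Tnfrsf18, or GITR, likewise carried by regulatory T cells, had a difference of -0.19 (95% interval -0.46 to 0.08), and Cd27, of naive and memory T cells, one of -0.14 (95% interval -0.42 to 0.14).

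A few members of the costimulatory group did not share the lower direction. Tnfrsf25, or DR3, the receptor of T cells for TL1A, read 6.45, 6.44 and 6.76 on the arrays labelled Falcor-null, against 6.38, 6.27 and 6.22 in wild type, and was higher on all 3 arrays (log2 difference 0.26, SE 0.11, adjusted p 0.353). Its ligand Tnfsf15, or TL1A, read 6.98, 6.83 and 6.89, against 7.25, 7.04 and 6.81, with overlap and a difference of -0.14. Cd40, the receptor by which T cells help B cells and dendritic cells, read 7.23, 7.02 and 7.22, against 6.86, 7.19 and 6.96 (log2 difference 0.15, 95% interval -0.11 to 0.41). The Cd40 groups overlapped. Of the 12 measured costimulatory members, 10 were lower and 2 higher, none passed, and 5 were lower without overlap, where 10.6% of all genes were.

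T cell markers were lower too, like most of these genes. All 12 measured T cell markers were lower, with a median log2 difference of -0.53, and Cd3e, Cd4 and Cd3g passed. Of 9 markers of regulatory and activated T cells, all were lower, with a median of -0.67, and Icos (2.26-fold lower, adjusted p 0.0267) and Ctla4 passed, while Foxp3 gave -1.10 with an adjusted p of 0.0534. With 1 array left out, 0 to 3 of the T cell markers passed (0 without Falcor-null replicate 2) and 0 to 2 of the regulatory and activated markers (0 without wild type replicate 2 or any array labelled Falcor-null). The mean signal of this regulatory and activated list was 5.82 to 5.96 on the arrays labelled Falcor-null and 6.43 to 6.74 in wild type. For the T cell list it was 6.21 to 6.50 on the arrays labelled Falcor-null and 6.92 to 7.09 in wild type. The 6 NK cell markers were lower with overlap (median -0.26, or -0.14 without wild type replicate 1, none at an unadjusted p of 0.05). The part of these cells in the costimulatory differences was not tested.

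TNF, the lymphotoxins and their receptors were lower apart from Ltbr. Tnf itself, the inflammatory cytokine of macrophages and T cells, read 5.83, 5.58 and 5.41 on the arrays labelled Falcor-null, against 5.75, 6.72 and 6.50 in wild type. Wild type replicate 1 lay among the arrays labelled Falcor-null and the other wild-type arrays above them. The log2 difference was -0.71 (SE 0.24, adjusted p 0.256), and it was -0.52 without wild type replicate 2, while without wild type replicate 1 the adjusted p was 0.0554. Ltb, which anchors lymphotoxin alpha to the lymphocyte membrane, read 7.20, 7.26 and 7.41, against 7.89, 7.55 and 7.78 in wild type (log2 difference -0.45, SE 0.11, adjusted p 0.137). Lta, the soluble partner, read 5.05, 5.08 and 5.05, against 5.17, 5.23 and 5.27, a small difference of -0.16 (SE 0.071, adjusted p 0.370) in a dim probe set. Neither lymphotoxin gene had overlapping groups.

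Among their receptors, Tnfrsf1b, or TNFR2, of regulatory T cells, myeloid cells and endothelium, read 7.92, 7.98 and 8.07 on the arrays labelled Falcor-null, against 8.25, 8.76 and 8.53 in wild type. This was a log2 difference of -0.53 (SE 0.13, 1.44-fold lower, adjusted p 0.145), with no overlap. Tnfrsf1a, or TNFR1, the widely expressed death domain receptor, read 9.47, 9.46 and 9.32, against 9.67, 9.65 and 9.66. The wild-type arrays were almost identical here and the difference of -0.24 (SE 0.076, 1.18-fold lower) had an adjusted p of 0.226. Ltbr, the lymphotoxin beta receptor of stromal and myeloid cells, read 8.47, 8.62 and 8.41, against 8.46, 8.43 and 8.54, a difference of 0.02 with a 95% interval of -0.18 to 0.23.

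**Figure D3:**
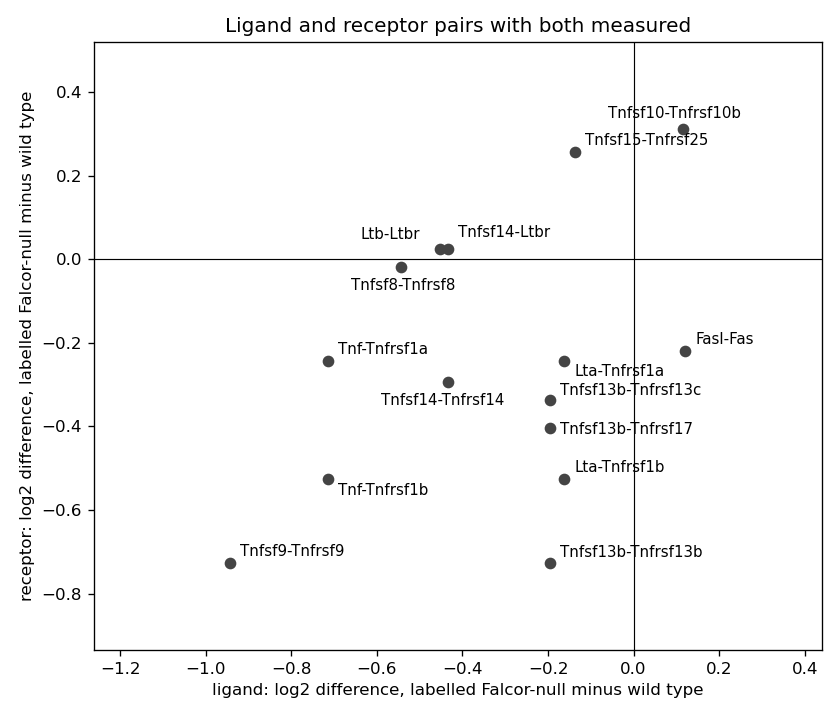
Log2 difference (labelled Falcor-null minus wild type) of the receptor against that of its ligand for the 15 pairs in which both were measured, where a gene can stand in several pairs. Both partners were lower in 10 pairs, both higher in 1 (Tnfsf10 and Tnfrsf10b), and they had opposite signs in 4.

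Ligand and receptor pairs with both partners measured numbered 15, built from 10 ligands and 12 receptors that recur among them. In 4 pairs the arrays labelled Falcor-null lay below wild type without overlap for ligand and receptor alike. These were Tnfsf9 with Tnfrsf9, Tnfsf14 with Tnfrsf14, and Lta, counted in both, with Tnfrsf1a and with Tnfrsf1b. Of all genes taken singly, 10.6% were lower without overlap, and no matching share for pairs was computed. Ltbr stood at 0.02 beside ligands at -0.45 (Ltb) and -0.43 (Tnfsf14).

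Among death receptors and decoys, 0 of 7 members had groups that separated, where 19.5% of all genes had, so that a count of 0 in so few genes is near that share. Fas, the death receptor, read 8.55, 8.99 and 9.04 on the arrays labelled Falcor-null and 9.23, 9.15 and 8.86 in wild type (log2 difference -0.22, 95% interval -0.59 to 0.15). Its ligand Fasl, of cytotoxic lymphocytes, was dim in every array, from 4.31 to 4.87, with a difference of 0.12. Tnfsf10, or TRAIL, differed by 0.11 (95% interval -0.29 to 0.52) and the mouse TRAIL receptor Tnfrsf10b by 0.31 (95% interval -0.17 to 0.79). Tnfrsf21, or DR6, gave -0.18 (95% interval -0.47 to 0.12). Of these 7 genes, 4 were lower and 3 higher, with a median difference of -0.07. The intervals of Fas, Tnfrsf21, Tnfrsf22 and Tnfrsf23 reach below -0.35, the median of the TNF and lymphotoxin group. Those of Fasl, Tnfsf10 and Tnfrsf10b do not.

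The decoy receptors Tnfrsf22 and Tnfrsf23 and their relative Tnfrsf26, clustered on mouse chromosome 7, are similar in sequence, so that signal may be shared between their probe sets. Tnfrsf26 was placed by role with the bone and tissue receptors, so it is not in the count and median of death receptors and decoys. It read 5.46, 5.89 and 6.32 on the arrays labelled Falcor-null and 6.33, 7.36 and 6.20 in wild type. Tnfrsf23 read 6.92, 6.87 and 7.16 there and 7.09, 8.14 and 7.02 in wild type. In both, wild type replicate 2 stood about 1 log2 unit above the other wild-type arrays, and in Tnfrsf22, at 7.40, 7.38 and 6.99 in wild type, it did not. Without that array the difference of Tnfrsf26 was -0.37 in place of -0.74, and that of Tnfrsf23 was -0.08 in place of -0.44.

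Receptors known from bone and from tissue growth went both ways. Tnfrsf11a, or RANK, the receptor of osteoclast precursors and dendritic cells, read 6.37, 6.37 and 6.56 on the arrays labelled Falcor-null, against 6.90, 6.80 and 6.93 in wild type. The groups were well separated, with a log2 difference of -0.44 (SE 0.086, 1.36-fold lower) and an adjusted p of 0.0854. Tnfrsf11b, or osteoprotegerin, the secreted decoy for RANK ligand, read 5.94, 5.75 and 5.97, against 6.09, 6.21 and 6.34 (log2 difference -0.33, SE 0.10, adjusted p 0.219). Tnfrsf19, or TROY, a receptor without an agreed ligand that is known from epithelium and stem cells, was higher on all arrays labelled Falcor-null, with 8.0, 7.75 and 7.99, against 7.67, 7.62 and 7.48 in wild type. Its log2 difference of 0.33 (SE 0.10, 1.25-fold higher) had an adjusted p of 0.219. Tnfrsf12a, or Fn14, the TWEAK receptor induced in injured tissue, read 7.56, 7.92 and 7.16, against 7.31, 7.59 and 7.33, with overlap and a difference of 0.14 (95% interval -0.30 to 0.58).

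Because several members are dim and the lowest values on the arrays differed between groups, members were also set beside genes of like signal. The 7 members among the dimmest 20% of genes by mean signal (4.34 to 5.43) had a median difference of -0.40, while all genes of that level had one of 0.05 and 4.99% of them were lower without overlap. Of those 7 members, 5 were lower without overlap. Going up in steps of 20% of genes, the member medians were -0.33, -0.14, -0.09 and -0.20, where those of all genes lay between -0.02 and 0.02.

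**Figure D4:**
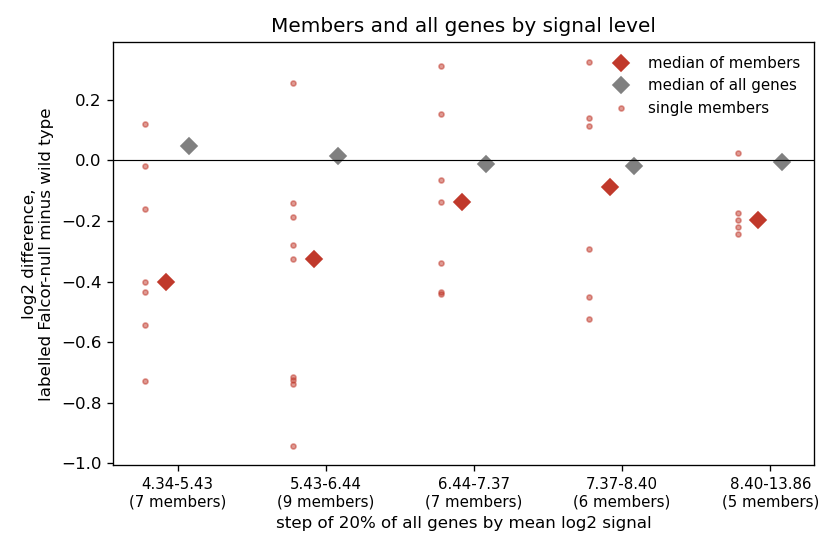
Median log2 difference (labelled Falcor-null minus wild type) of the members (red diamonds) and of all genes (grey diamonds) in each 20% of genes by mean log2 signal, with single members as small dots. The member medians lie between -0.40 and -0.09 and those of all genes between -0.02 and 0.05.

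Of 57 measured pathway genes in 6 lists, 0 passed in limma, where 0.556% of all genes did, so that 0 is near the share of all genes. At an unadjusted p of 0.05 they numbered 13, beside 13.8% of all genes. Of these, 12 were lower, beside 7.65% of all genes. Among 10 measured TRAFs and adaptors, 7 were lower with a median of -0.08 (-0.03 without Falcor-null replicate 1), and Tank, which binds TRAFs and tempers NF-kB signalling, gave the smallest p (log2 difference -0.38, SE 0.078, adjusted p 0.0987). Of 11 NF-kB subunits and kinases, 9 were lower with a median of -0.12 (-0.08 without Falcor-null replicate 2). Rel, the lymphoid subunit, differed by -0.36 (adjusted p 0.283), Nfkb2 by -0.21 (adjusted p 0.353) and Rela by 0.05. Of 14 NF-kB inhibitors and feedback genes, 12 were lower with a median of -0.12 (-0.23 without Falcor-null replicate 2 and -0.18 without wild type replicate 1) and 6 of them without overlap, beside 10.6% of all genes. Tnip3, an inhibitor induced by NF-kB, read 5.52, 6.03 and 5.47 on the arrays labelled Falcor-null, against 6.31, 6.76 and 6.88 in wild type (log2 difference -0.98, SE 0.19, adjusted p 0.088). Tnfaip2, a TNF-induced gene, differed by -0.65 (SE 0.14, adjusted p 0.107) and Nfkbie by -0.32 (SE 0.072, adjusted p 0.116). The feedback inhibitor Nfkbia stood at -0.00021. Across the 11 death signalling genes, 6 were lower and 5 higher (median -0.03, and -0.08 to 0.03 with 1 array left out), and the largest difference was in Bcl2a1a, 1 of several near-identical survival genes and uncertain for that reason (-0.46, adjusted p 0.327).

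Superfamily genes that the symbol rule passes over, and the adaptor Edaradd, had overlapping groups throughout. Groups did not overlap in 19.5% of all genes, so in so few genes this is near that share. All except Relt were among the dimmest 20% of genes by mean signal. The ectodysplasin ligand Eda, its receptors Edar and Eda2r, their adaptor Edaradd, the neurotrophin receptor Ngfr and Relt had differences from -0.10 to 0.26, the highest being Ngfr (95% interval -0.16 to 0.68). Of 5 genes that shed or process ligands from the cell surface, 3 were higher, and Adam10, a sheddase, differed by 0.21 without overlap (adjusted p 0.257), while the TNF sheddase Adam17 differed by -0.15 with overlap.

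**Figure D5:**
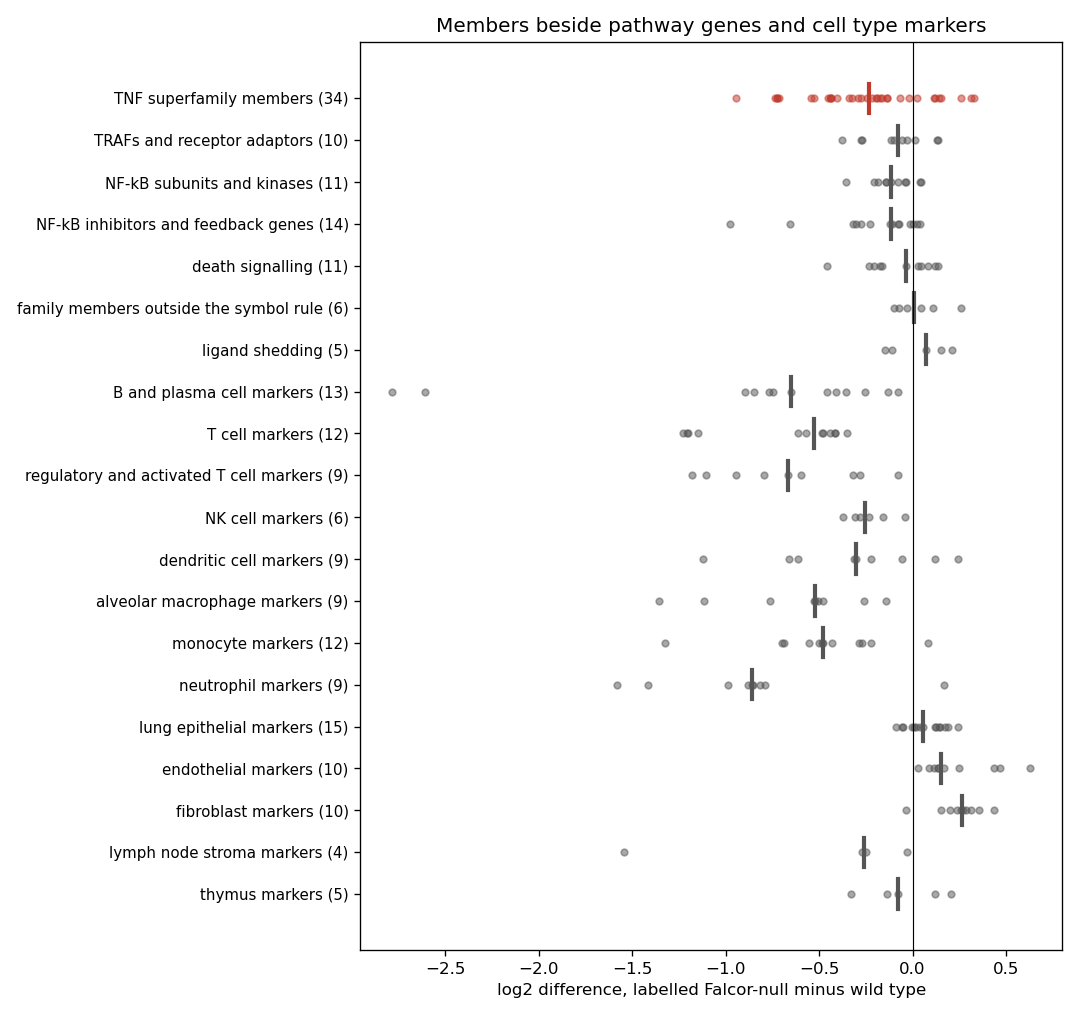
Log2 difference (labelled Falcor-null minus wild type) of single genes (dots) in the TNF superfamily (red) and in 6 pathway and 13 marker lists (grey), with the number measured in brackets and a bar at each median. Marker lists of B, T and myeloid cells lie left of 0, with a lowest median of -0.86 in neutrophils (-0.43 without wild type replicate 3), and those of endothelium and fibroblasts lie right of it at 0.15 and 0.26.

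Most markers of myeloid cells, which carry Tnfrsf1b, Tnfsf9 and Tnf, had lower values as well. Of 12 markers in the monocyte list, which also holds genes of macrophages, 11 were lower (median difference -0.48) and Csf1r stood at 0.08. All 9 alveolar macrophage markers were lower (median -0.52). Of 9 neutrophil markers, 8 were lower, with a median of -0.86 that was -0.43 without wild type replicate 3, whose mean over the list was 8.25 beside 7.20 and 7.23 on the other wild-type arrays. Of 9 dendritic cell markers, 7 were lower and 2 higher, with a median of -0.30 that was -0.17 without wild type replicate 1. None of these genes passed. Mean signals of the monocyte list were 7.85 to 7.95 on the arrays labelled Falcor-null and 8.24 to 8.44 in wild type. Markers of lung epithelium had a median of 0.05 (0.02 to 0.12 with 1 array left out), those of endothelium 0.15 (0.28 without Falcor-null replicate 3) and those of fibroblasts 0.26, with mean epithelial signals of 10.73 to 10.85 on the arrays labelled Falcor-null and 10.65 to 10.74 in wild type. The epithelial list was thus bright on all 6 arrays, as the label of lung requires. Among 4 measured lymph node stroma markers the B cell chemokine Cxcl13 passed (log2 difference -1.54, SE 0.16, adjusted p 0.0147), except without Falcor-null replicate 1 or 2. The others were below 0, though Madcam1 was at -0.03 with overlap, and Chst4, at -0.25, was at 0.17 without wild type replicate 1. Mean signals of that list were 5.70 to 5.81 on the arrays labelled Falcor-null and 6.12 to 6.46 in wild type. The 5 measured thymus markers had a median of -0.08 and none passed. How far any of these cell types enters the family's differences was not tested.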

How the data were processed

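Whole-lung RNA was labelled with biotin and read on arrays of 1 channel, per the labels. The file deposited by the authors holds a log2 signal for each probe set and array. Tools listed in the submitters' processing notes are oligo, RMA and limma, with no version. RMA makes the arrays' distributions alike, so a shift of most genes one way would be removed. Row filters and the genome build are not given in the sources used here. The table held 24173 probe sets, of which 17476 had 1 symbol in the platform annotation, 1308 had several and 5389 had none, and the first gave 16537 genes by brightest probe set. No detection calls were at hand, so how far a probe set stood above background is unknown. Precision is limited by the number of arrays.

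Arrays were grouped by title and compared by lmFit and eBayes (limma 3.58.1 in R 4.3.3) without covariates, with two-sided p-values and Benjamini-Hochberg adjustment over all genes. An exact permutation test of 3 arrays against 3 cannot go below 0.1, so none is given. The test was tried on simulated data. Any measured member could be named. From each list, genes that passed and up to 3 with the smallest p could be named. Rela, Nfkbia, Csf1r, Eda, Edar and Relt were named after their values were seen. Members, roles, pairs and lists were chosen with earlier results of these data known, and the promoter motifs after the data were seen. Alternatives covered the replicate block, scaling, variance models, dim genes, probe set choice, thresholds and leaving out each array. Figures used matplotlib 3.10.9 in Python 3.11.15.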

Additional observations from a re-analysis of the deposited data

How the results depend on the processing

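Of 517 single-member values under the alternatives, 501 kept their direction and their side of the threshold. Members lower at an unadjusted p of 0.05 numbered 15, and 11 to 17 under the alternatives without the filter at the median signal. The share of all genes under those alternatives was 6.13% to 9.54%. The 11 were of 26 members tested with genes below the 30th percentile of mean signal left out. With genes below the median signal left out, 15 members were tested. Of these, 10 had a difference below 0 and 4 were lower at an unadjusted p of 0.05, beside 10.1% of all genes. Members below 0 numbered 24 to 28 of 34 with 1 array left out. The members' median difference ran from -0.28 to -0.20 with 1 array left out and was -0.18 with genes below the median signal left out, since the dim members are then not tested.

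With 1 array left out, 18 to 89 genes, 0 or 1 member and 0 or 1 pathway gene passed, the member being Tnfrsf13b and the pathway gene Tnfaip2 (adjusted p 0.0479 without wild type replicate 1). Tnfrsf13b is not tested when genes below the 30th or the 50th percentile of mean signal are left out, which leaves 0 members. At an adjusted p under 0.1, 280 genes, 4 members and 2 pathway genes passed, and at an unadjusted p under 0.05, 2275 genes, 17 members and 13 pathway genes. With the replicate numbers as a block, 32 genes and 0 members passed (Tnfrsf13b adjusted p 0.0850). Deviations from the group means correlated at 0.02, -0.00 and -0.08 for the same-numbered arrays, the last being the lowest of the 9 pairs. With so few arrays, these values cannot show whether the numbers pair the samples.

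Signs turned in 6 members near 0. With arrays centred on their medians, Tnfrsf8 gave 0.0094. With 1 array left out, the difference ran from -0.085 to 0.046 for Tnfrsf8, from -0.20 to 0.021 for Tnfrsf22, from -0.037 to 0.071 for Ltbr, from -0.015 to 0.206 for Fasl, from -0.047 to 0.332 for Tnfrsf12a and from -0.0059 to 0.320 for Tnfsf10. The cause was not tested.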

Other observations

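Some superfamily members are neighbours in RefSeq order on GRCm38.p6, with no other protein-coding gene between them, and their log2 differences are given side by side. Tnfrsf1b (-0.53) and Tnfrsf8 (-0.02) lie side by side on chromosome 4, as do Tnfsf8 (-0.54) and Tnfsf15 (-0.14) and, elsewhere on it, Tnfrsf4 (-0.28) and Tnfrsf18 (-0.19). Ltb (-0.45), Tnf (-0.71) and Lta (-0.16) follow one another on chromosome 17 and were all lower. Whether differences between neighbours are larger than their spread was not tested.

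A pair of probe sets could not be assigned to 1 gene because the annotation gives them several symbols. Probe set 17264884, shared by Tnfsf12, Tnfsf13 and Tnfsfm13, read 7.99, 7.94 and 8.11 on the arrays labelled Falcor-null, against 8.28, 8.48 and 8.22 in wild type (log2 difference -0.32, SE 0.10, limma adjusted p 0.229 over all annotated probe sets). Probe set 17433934, shared by Tnfrsf18 and Gm16008, read 6.20, 6.28 and 6.31 there, against 6.37, 6.40 and 6.43 in wild type (log2 difference -0.14, adjusted p 0.467). In both, all arrays labelled Falcor-null lay below wild type.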
